A study of Arabidopsis thaliana with 2 samples.

Results

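The genes described here are 4 transcripts of Arabidopsis thaliana that are linked to heat but do not encode classical chaperones. They are AT5G25450, a subunit of mitochondrial complex III, AT5G12110, a subunit of elongation factor 1B, AT2G41090, a calmodulin-like protein, and HSA32 (AT4G21320), a heat-stress-associated protein. They were chosen as the probe sets whose platform annotation names one of these genes alone. That gave 1 probe set for each of the 4 genes, out of 9063 genes named alone on the arrays. They were picked because their values in the double knockout lay below those in the wild type, so their differences are a description and carry no test.

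Both arrays hold RNA from rosette leaves of ecotype Columbia, 1 array from the double knockout KO-HsfA1d/A1e and 1 from the wild type. The knockout lacks a pair of class A1 heat shock factors, and the sources used here give neither the alleles nor the number of plants behind each RNA sample. Plants of both genotypes were raised on MS medium for 2 weeks at 100 µE m-2 s-1, in days of 16 h (25°C) and nights of 8 h (22°C). Both then received 30 min of light at 400 µE m-2 s-1 and 25°C before harvest, and no array without high light was analysed here. Neither genotype has a second array, so replicate error is unknown, no test can be made, and each difference compares these 2 arrays alone.

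Heat shock factors of class A1 are activated by stress and bind heat shock elements in promoters, and their best known targets encode chaperones. A smaller set of genes joins the heat response without encoding a chaperone. Complex III passes electrons from ubiquinol to cytochrome c in the inner mitochondrial membrane, and in plants it also contains the peptidase that removes the import signals of mitochondrial proteins. Elongation factor 1B reloads elongation factor 1A with GTP, so that it can bring aminoacyl-tRNA to the ribosome. Calmodulin-like proteins bind calcium and pass calcium signals to other proteins. HSA32 is a plant protein required for long-term acquired heat tolerance, the ability to survive heat well after a first mild exposure.

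Facts of the arrays bear on all 4 genes alike. The deposited values are linear intensities for 16541 probe sets, with a median of 331.9 on the knockout array and 334.1 on the wild-type array. Differences are given as log2(intensity + 16) in the knockout minus the same in the wild type, and folds as ratios of the intensities themselves. A filter left the brighter 8271 probe sets, those with a mean log2 value of 8.44 or more, the median over all probe sets, which corresponds to an intensity of about 332. Past the filter, the median difference was 0.03, and 95% of differences lay between -0.68 and 0.52. For the 13 genes with several probe sets past the filter, the differences of a gene's probe sets had an SD of 0.20 log2 units, which leaves out the spread between plants. No probe set named HsfA1d or HsfA1e alone, so the knockout could not be checked on its targeted genes. Of 8 genes fixed as leaf markers, the 3 measured (RCA, LHCB4.1 and LHCB4.2) had differences between -0.03 and 0.13.

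AT5G25450 had the largest difference of the 4 genes. Its intensity was 561.7 in the knockout, against 4455 in the wild type. The knockout value was 12.6% of the wild-type value, 7.93-fold lower, with a log2 difference of -2.95. In leaf tissue, fewer cells with a transcript and less transcript per cell cannot be told apart, here or for the other genes.

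AT2G41090 had 2425 in the knockout, against 8452 in the wild type, a log2 difference of -1.79. The knockout kept 28.7% of the wild-type value, 3.49-fold lower. AT5G12110 had 3376 in the knockout, against 10285 in the wild type, a log2 difference of -1.60. That is 32.8% of the wild-type value, 3.05-fold lower. HSA32 had 458.3 in the knockout, against 1284 in the wild type, a log2 difference of -1.45. The knockout kept 35.7% of the wild-type value, 2.80-fold lower.

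AT5G25450 thus stood apart from the other 3 genes in the size of its difference. Among the other 3, AT2G41090 and AT5G12110 differed from each other by less than the 0.20 SD between probe sets of one gene. AT5G12110 and HSA32 also differed by less than that SD, while AT2G41090 and HSA32 differed by more than it. All 4 genes were past the filter and all 4 were at least 2-fold lower in the knockout, as were 1.38% of the 8271 probe sets past the filter. At 3-fold, 3 of the 4 remained, without HSA32, as did 51 of the 8271 probe sets past the filter. Since the genes were chosen from this comparison, nothing is read from either count.

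**Figure D1:**
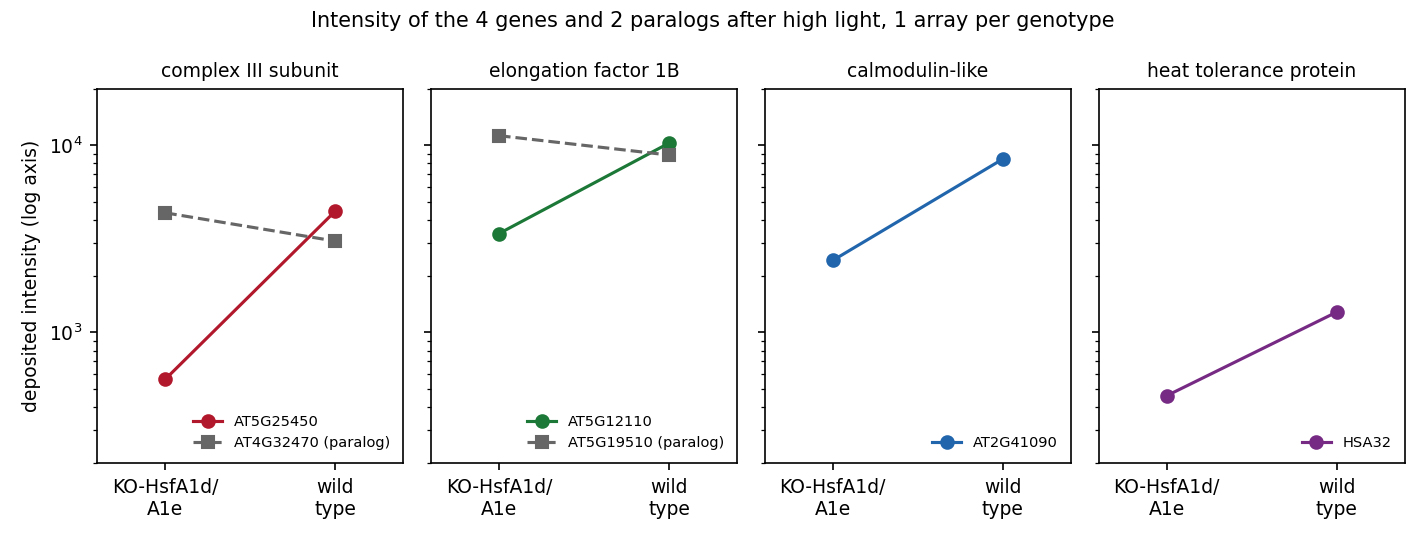
Deposited intensity (log axis) of each of the 4 genes on the KO-HsfA1d/A1e array and the wild-type array, as circles joined by solid lines, with the measured paralogs AT4G32470 and AT5G19510 as squares joined by dashed lines. There is 1 array per genotype, so no error bars are drawn, and probe sets of different genes differ in brightness, so only the slopes can be compared. The 4 solid lines run lower on the knockout side and the 2 dashed lines run slightly higher there. The log2 differences of both paralogs lie within the limits of -0.68 and 0.52 given in the text for probe sets past the filter.

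The 4 genes can be placed among probe sets of like brightness, where scatter is similar. Since they were chosen for lower values in the knockout, a low place follows from that choice, and the counts here are no test. Around AT5G25450, the 500 probe sets nearest in mean log2 value had 95% of their differences between -0.59 and 0.51, and 1 of the 500 was as low as AT5G25450. Around HSA32, the limits were -0.65 and 0.50, and 2 of the 500 were as low. Around AT2G41090, they were -0.81 and 0.47, and 4 were as low. Around AT5G12110, they were -0.94 and 0.41, and 5 were as low. The lower limit was thus further from 0 around the 2 genes with the higher mean signal, AT5G12110 and AT2G41090, while the medians stayed between 0.01 and 0.04.

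Among the 4173 singly named probe sets past the filter, AT5G25450 had the sixth lowest difference, between the HSP70 gene Hsp70-2 (-2.99) and AT4G19430 (-2.89). AT2G41090 was 14 from the bottom, between AT1G30070 (-1.79) and AT1G26800 (-1.76). AT5G12110 was 18 from the bottom, between AT5G10695 (-1.65) and Cpn60beta2 (-1.60), a chloroplast chaperonin subunit. HSA32 was 24 from the bottom, between SGT1A (-1.55), a co-chaperone of HSP90, and AT3G12050 (-1.43).

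The genes nearest to each of the 4 in level and difference together were found by the distance over mean log2 value and log2 difference, which for 2 arrays is all that a pattern holds. For AT5G25450 they were AT5G51440 (distance 0.45), AT5G37670 (0.69) and AT1G53540 (1.005), all of them small heat shock protein genes. For AT5G12110 they were Cpn60beta2 (0.27), AT3G12050 (0.28) and the HSP70-associated factor Fes1A (0.38). For AT2G41090 they were again Cpn60beta2 (0.23), then AT1G30070 (0.32) and Hop3 (0.33), a co-chaperone that links HSP70 and HSP90. For HSA32 they were AT5G24210 (0.19), RING1 (0.21) and AT2G39210 (0.22). The 4 genes were chosen for lower values in the knockout, so nearest genes that are also lower follow from that choice. Roles are given for only some of these genes, and no shared role is read from the lists.

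**Figure D2:**
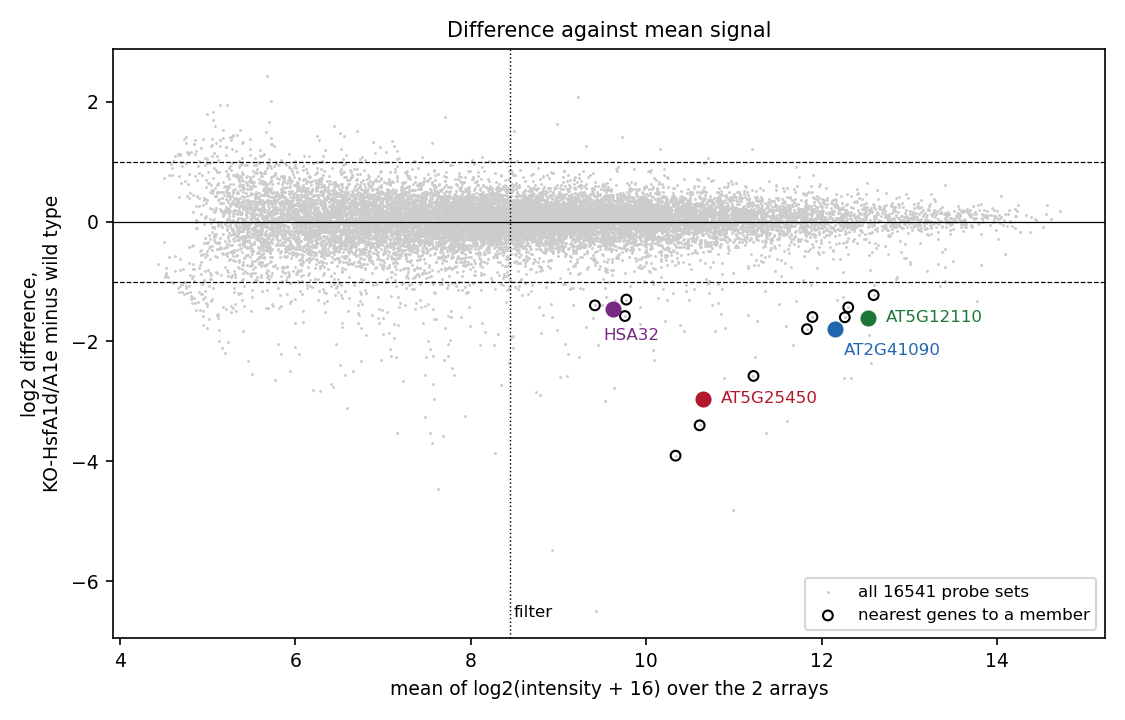
Log2 difference, KO-HsfA1d/A1e minus wild type, against the mean of log2(intensity + 16) over the 2 arrays, with a grey point for each of the 16541 probe sets. Filled circles are the 4 genes, open circles the genes nearest to any of them, dashed lines 2-fold in either direction and the dotted line the filter at 8.44. The 4 genes lie right of the filter and below the dashed line at 2-fold lower.

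The other measured subunits of complex III did not reach 2-fold in either direction. Of 15 other genes fixed for the complex, 10 were measured, all past the filter, and 0 of the 10 were at least 2-fold different. Past the filter, 1.38% of all probe sets were at least 2-fold lower and 0.121% at least 2-fold higher. The count of 0 of 10 is near those shares. Differences of the 10 ran from -0.16 to 0.50 with a median of 0.12, close to the median of 0.03 over all probe sets past the filter. Of the 10, 3 were below 0 and 7 above, against 43.7% below 0 among all probe sets past the filter.

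AT4G32470, the paralog of AT5G25450 for the same small subunit, had 4358 in the knockout and 3075 in the wild type. Its difference of 0.50 was the highest of the complex. It lay within the limits of -0.68 and 0.52 given above for probe sets past the filter. It was above the upper limit of 0.47 around AT2G41090, the one of the 4 genes closest to it in mean log2 value. Limits around AT4G32470 itself were not computed, and with 1 array per genotype no rise is read from its value. The genes listed for the hinge subunit were AT2G01090, with 1936 in the knockout and 1498 in the wild type (0.37), and AT1G15120, with 4094 and 4417 (-0.11). AT3G10860, listed for another small subunit, had 4626 in the knockout and 5180 in the wild type (-0.16), the lowest of the 10. These 4 small-subunit genes thus lay on both sides of 0.

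The smallest subunits of the list, AT3G52730 and AT2G40765, had differences of 0.12 and 0.28. The genes listed for cytochrome c1, the subunit that hands electrons to cytochrome c, were AT3G27240 (0.10) and AT5G40810 (0.23). The core subunits, which hold the import peptidase, were MPPBETA, with 4890 in the knockout and 4936 in the wild type (-0.01), and AT1G51980 (0.12). Among the 11 measured genes of complex III, AT5G25450 alone was at least 2-fold different, and it had been chosen for its lower value.

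For elongation factor 1B, the paralog AT5G19510, listed for the same nucleotide exchange role, was the only other measured gene of the 11 fixed for translation elongation. It had 11260 in the knockout and 8871 in the wild type, a difference of 0.34. Its value was thus higher in the knockout, while that of AT5G12110 was lower. The 0.34 lay within the limits of -0.68 and 0.52 given above for probe sets past the filter, so no rise is read from it. Genes for elongation factors 1A and 2 are not analysed here. The coding sequences of paralogs can be similar, and signal from one on the probes of the other was not tested for either pair.

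For AT2G41090, 54 other calmodulin and calmodulin-like genes were fixed, and 22 were measured. Of the 22, 5 were at least 2-fold lower in the knockout and 0 at least 2-fold higher, against 2.28% at least 2-fold lower among all probe sets. Their median was -0.22, against 0.03 over all probe sets, and 17 of the 22 were below 0, against 45.6% of all probe sets. The 6 of the 22 past the filter lay between -0.16 and 0.26, with a median of 0.02. Of these 6, 3 were below 0 and 3 above, against 43.7% below 0 among all probe sets past the filter. The highest were AT1G62820, with 739.1 in the knockout and 614.2 in the wild type (0.26), and AT1G12310, with 2934 and 2808 (0.06). The lowest were AT1G18210, with 2223 in the knockout and 2485 in the wild type (-0.16), and AT2G41410, with 4301 and 4629 (-0.11). The filter is on the mean of both arrays, so a gene much lower in the knockout can miss it for that reason.

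The 5 genes at least 2-fold lower all had means under the filter, and they are named here with their values known. One of them, AT3G47480, was past the filter by its wild-type value and under it through its knockout value. With genes kept by the brighter of their values, a choice made after seeing the data, 1 of 7 was at least 2-fold lower (1.92% of all probe sets so kept). Of the 15 genes with both values under the filter, 4 were at least 2-fold lower. Among all probe sets with a mean under the filter, 3.18% were at least 2-fold lower. The share over probe sets with both values under it was not computed.

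AT3G47480 had 41.9 in the knockout and 537.1 in the wild type, a difference of -3.26. AT1G21550 had 61.0 in the knockout and 236.3 in the wild type (-1.71), and AT5G39670 had 62.7 and 207.1 (-1.50). AT3G01830 had 87.7 in the knockout and 250.1 in the wild type (-1.36), and CML37 had 46.6 and 135.9 (-1.28). The knockout values of these genes lie near the dim end of the array, whose lowest 5% end at 31.9, and without detection calls they could not be told from background. Of the remaining dim genes, those with a symbol were under 2-fold, with CML23 at -0.77, CML38 at -0.71, CML30 at -0.42, CML41 at -0.19 and CML42 at -0.11. AT2G41100 (TCH3) and AT2G41110 (CAM2), which lie close to AT2G41090 in chromosome order, are not analysed here.

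For HSA32, 13 other genes tied to heat memory were fixed, and only 2 were measured. The list was made with earlier results known. Both of its measured genes were at least 2-fold lower in the knockout, as were 2.28% of all probe sets, and nothing is read from this count. AT5G48570, the peptidyl-prolyl isomerase ROF2, was 6.17-fold lower (-2.62). ATHSP22.0, a small heat shock protein of the endoplasmic reticulum, had 26.1 in the knockout and 909.6 in the wild type (-4.46). Its wild-type value was past the filter, and its mean was under it through its knockout value. HSA32 thus had the smallest difference of the 3 measured genes of the list. Of 17 genes fixed as other heat-induced genes without a chaperone role, such as transcription factors and galactinol synthases, 0 were named alone by a probe set.

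**Figure D3:**
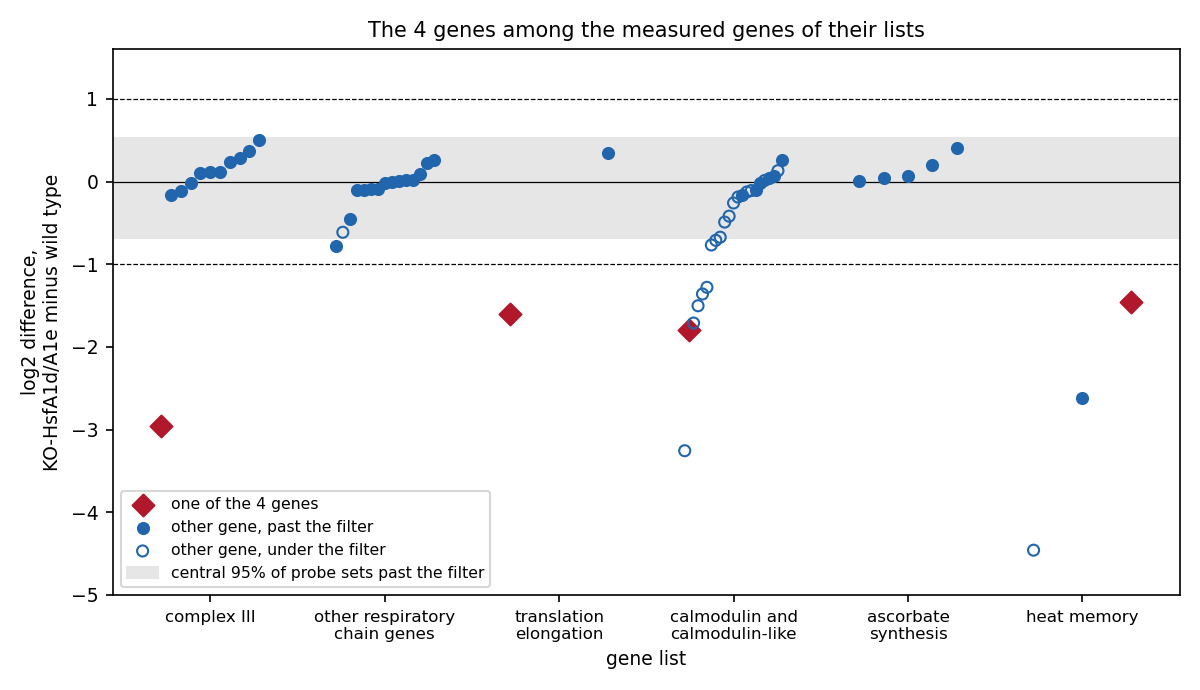
Log2 difference, KO-HsfA1d/A1e minus wild type, of each measured gene in 6 gene lists, sorted within a list. Red diamonds are the 4 genes, filled circles other genes past the filter and open circles genes under it; the grey band holds the central 95% of probe sets past the filter, -0.68 to 0.52, and dashed lines mark 2-fold. The diamonds for complex III and translation elongation lie below every other gene of their lists, the calmodulin-like diamond lies above 1 open circle, and the heat memory diamond is the highest of its list.

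The surroundings of the 4 genes on the chromosomes were examined after their values were known, by gene order in the TAIR10.1 gene table. Within 8 genes on either side, 21 other genes were measured. Of these, 2 were at least 2-fold lower in the knockout, against 2.28% of all 16541 probe sets. Each was directly next to one of the 4 genes. Each had a wild-type value past the filter and a mean under it through its knockout value. At least 2-fold lower were 3.18% of probe sets with a mean under the filter. Among probe sets whose brighter value passes the filter, the share was 1.92%.

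AT5G25440, next to AT5G25450, had 107.7 in the knockout and 353.8 in the wild type, a difference of -1.58. AT4G21323, next to HSA32, had 43.7 in the knockout and 363.1 in the wild type, a difference of -2.67. Its annotated span overlaps that of HSA32, so signal of one gene on the probes of the other was not tested. AT5G12110 also overlaps its neighbour, AT5G12120, which had 1091 in the knockout and 849.9 in the wild type, a difference of 0.35 in the other direction. AT5G25450 overlaps an annotated long non-coding RNA and a transcribed pseudogene, AT5G25451, and AT2G41090 overlaps a long non-coding RNA, none of which was measured.

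The other neighbours were under 2-fold in either direction. Around AT5G12110 the 6 measured genes ran from -0.12 to 0.38, and around AT2G41090 the 7 measured genes ran from -0.16 to 0.84. The lower values at these 2 genes were therefore not shared by any measured gene within 8 positions. RefSeq lists 3 transcripts for AT5G25450 and 1 for each of the other 3 genes, and a single value per gene does not separate transcripts.

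**Figure D4:**
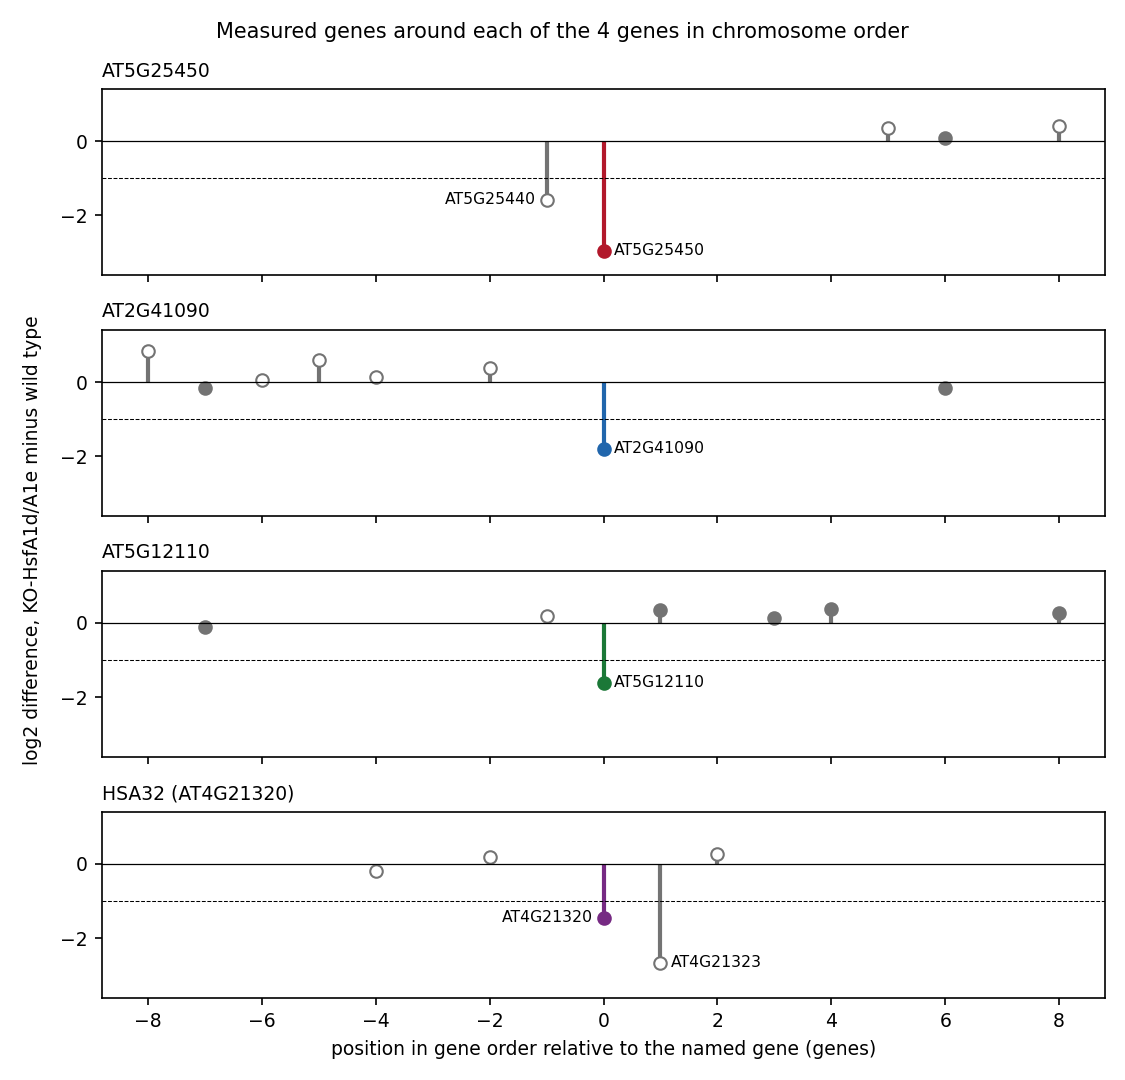
Log2 difference, KO-HsfA1d/A1e minus wild type, of the measured genes within 8 positions of each of the 4 genes in chromosome order, with the gene itself in colour at position 0. Filled points are past the filter, open points under it, the dashed line marks 2-fold lower, and positions without a point were not measured. Only AT5G25440 and AT4G21323 lie below the dashed line besides the 4 genes.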

How the data were processed

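RNA was measured in 2 samples, 1 Affymetrix array per genotype. Per the labels' protocols, biotinylated cRNA was made from 100 ng of total RNA by the 3'IVT Express procedure. The values deposited by the authors are intensities on a linear scale, 1 for each probe set on an array. How probes were summarized, corrected for background, scaled and filtered is not given in the sources used here. Precision is limited by the number of arrays.

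Probe sets were named through the platform annotation held by GEO, parts of which may be out of date. Of 16541 probe sets, 9139 had 1 symbol, 340 had several and 7062 had none. For 9095 of the 9139, Entrez identifiers matched the TAIR10.1 gene table. That table was used for names and gene order only, since no build is stated for the values. Subunit roles of loci without a symbol come from general knowledge of Arabidopsis. The gene sets and lists were chosen with earlier results of these data known. Complex III, elongation, calmodulin, heat memory, heat-induced, leaf and other-tissue lists were set first. Lists of other respiratory chain genes and of ascorbate synthesis were added after the values were seen.

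The named genes were the 4 genes, their paralogs, the measured genes of the lists (for calmodulin-like genes, the 2 highest and 2 lowest past the filter), the 3 nearest genes, and the genes next in rank. A planned search for heat shock elements in promoters was not run. A gene with several probe sets was represented by the one with the highest mean. The arrays' medians past the filter differed by 0.02 log2 units, under the limit of 0.1, so values were used as deposited. The scripts were tested on simulated data and ran in Python 3.11.15 with numpy 2.4.6, pandas 2.3.3 and statsmodels 0.14.6. Alternatives were median centring, quantile normalization, loess (span 0.3), pseudocounts of 1 and 64, other filters and thresholds of 1.5-fold and 3-fold. For list medians, they also included the mean over a gene's probe sets and leaving out probe sets ending in _s_at or _x_at.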

Additional observations from a re-analysis of the deposited data

How the results depend on the processing

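No paired analysis was possible because there is a single array per genotype, and for the same reason no replicate could be left out. The 4 genes kept their direction and stayed at least 2-fold lower in the knockout in all 20 values under median centring, quantile normalization, loess and pseudocounts of 1 and 64. Across these settings the log2 difference ran from -2.99 to -2.85 for AT5G25450, from -1.84 to -1.77 for AT2G41090, from -1.65 to -1.59 for AT5G12110 and from -1.49 to -1.37 for HSA32. The count of the 4 genes at least 2-fold lower was 3 with the filter at percentile 75, which HSA32 does not pass, and 3 at 3-fold. The 114 probe sets at least 2-fold lower and 10 at least 2-fold higher became 377 and 127 with no filter, and 65 and 3 under the stricter filter at percentile 75, while a threshold of 1.5-fold gave 276 and 129 and one of 3-fold gave 51 and 2, by construction of the alternative. With only genes past the filter, the median of the calmodulin list, AT2G41090 included, was -0.018 in place of -0.26, and that of the heat memory list, HSA32 included, was -2.04 in place of -2.62. Keeping list genes by the brighter of their values, added after seeing the data, gave -0.06 for the calmodulin list. Of 54 list medians, 52 moved by less than the 0.20 SD between probe sets and 0 turned their sign. That tally holds the mean over a gene's probe sets and the removal of probe sets ending in _s_at or _x_at. Both left every list median unchanged. The filter settings left the medians of complex III, elongation and ascorbate synthesis unchanged. Such values cannot show robustness, so little is read from the tally. The list of other heat-induced genes gave no value, since none of its genes was measured. Dim genes are limited by an unknown background.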

Other observations

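The rest of the respiratory chain was set beside AT5G25450 with a list added after the values had been seen. Of 29 genes for complexes II and IV, ATP synthase, cytochrome c and the alternative oxidases, 15 were measured. Of the 15, 0 were at least 2-fold different, against 2.28% at least 2-fold lower among all probe sets. The median of the 15 was -0.02. The lowest was CYTC-2, one of the genes of cytochrome c, the carrier that accepts electrons from complex III. It had 3005 in the knockout and 5150 in the wild type, a difference of -0.77. Its relative CYTC-1 had 7028 in the knockout and 7075 in the wild type (-0.01). AT3G15640, listed for a subunit of complex IV, had 1454 in the knockout and 1989 in the wild type (-0.45), and AT1G80230, listed for the same subunit, had a difference of -0.09. The alternative oxidases are not analysed here.

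The calmodulin-like protein of AT2G41090 is known to bind phosphomannomutase, an enzyme of ascorbate synthesis in Arabidopsis, so a list for that pathway was added as well. Of its 10 genes, 5 were measured, and all 5 had differences between 0.01 and 0.40, with a median of 0.06. PMM, which encodes the phosphomannomutase, had 2974 in the knockout and 2875 in the wild type (0.05). GLDH, the mitochondrial enzyme of the last step, had 447.4 in the knockout and 334.6 in the wild type (0.40). None of the 5, all past the filter, was at least 2-fold different, against 1.38% at least 2-fold lower among probe sets past it.

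Markers of other tissues were few. The root gene PYK10 had 3758 in the knockout and 2555 in the wild type, a difference of 0.55. That was slightly above the upper limit of 0.52 given above for probe sets past the filter. The guard cell gene FMA (-0.10) and the cell division gene AUR1 (0.08) were under the filter. Their part in the values of the 4 genes was not tested.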
